A study of Mus musculus with 7 samples.

Results

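The genes that build, load and deliver major histocompatibility complex (MHC) molecules were compared between livers of control and lipopolysaccharide (LPS)-treated mice. The set held 57 of the 56691 genes of the count table. It was made of every gene whose symbol starts with H2-, the prefix of the mouse MHC, leaving out the symbols marked as pseudogenes, together with the named genes B2m, Tap1, Tap2, Tapbp, Tapbpl, Erap1, Nlrc5, Ciita, Cd74, Ctss, Ifi30, Cd80, Cd86, Cd1d1 and Cd274. The set was split into 2 class Ia heavy chains, 26 class Ib heavy chains, 5 class II chains, 5 chains that exchange peptides on class II, 7 genes for the light chain, loading and control of class I, 4 genes for the control and processing of class II, 4 genes for costimulation and lipid presentation and 4 other genes with the H2- prefix.

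The study modelled septic acute liver injury in male C57BL/6J mice, an inbred strain, bought at 8 weeks of age and housed for 2 weeks. The LPS group received LPS, a component of the outer membrane of Gram-negative bacteria, at 10 mg/kg by intraperitoneal injection and was killed at 24 h. The labels name no vehicle for the control group. The study kept 6 mice per group, and the liver RNA of 4 control and 3 LPS samples is described here, while its group pretreated with sulforaphane was not analysed here. The p-values measure the spread between these samples.

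MHC class I molecules are carried by nearly every nucleated cell and hold peptides cut from proteins of the cytosol for inspection by CD8 T cells, with class Ia (H2-K and H2-D) doing most of this work and the many class Ib molecules serving narrower tasks. A class I molecule is a heavy chain paired with beta-2-microglobulin, filled with peptide in the endoplasmic reticulum by the TAP transporter, tapasin and calreticulin. MHC class II molecules are made by dendritic cells, B cells and macrophages, take peptides from the endosome and show them to CD4 T cells, and in the liver they are found on Kupffer cells, dendritic cells and sinusoidal endothelium.

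Libraries of polyadenylated RNA were read to depths of 14991022, 15096573, 15721944 and 18584140 counted reads in control replicates 1 to 4, and of 20500391, 17095607 and 17821331 in LPS replicates 1 to 3. Levels are given as CPM, counts relative to library sizes that were scaled by the trimmed mean of M values (TMM), and 3 counts in a library corresponded to between 0.138 and 0.212 CPM. LPS replicates 2 and 3 were closer to each other than other replicates of a group: the SD of their log2 ratio over 5317 well-counted genes was 0.19, against 0.33 to 0.54 for the other pairs. The share of counts on mitochondrial transcripts was 23.7%, 14.6%, 7.48% and 8.96% in the control samples and 6.45%, 3.83% and 3.94% in the LPS samples.

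The samples carried the markers of liver. Albumin (Alb), the most abundant of the hepatocyte markers, averaged 46926 ± 11458 CPM in control samples and 24637 ± 25.9 CPM in LPS samples (SD, n = 4 and n = 3). Of the hepatocyte list, edgeR called 3 of 6 tested genes lower: Alb, Apoa1 and Ttr fell by 0.93, 0.70 and 1.23 on the log2 scale. The other 3 were not called by edgeR, and DESeq2 called 1 gene of the list higher. Cps1 went the other way, from 1738 ± 465 to 2662 ± 352 CPM (SD, n = 4 and n = 3), every LPS sample above every control sample, and Apob and Apoc3 had log2 fold changes of 0.14 and -0.51. The symbol Tf of that list was not analysed here. The list, most of it Alb, summed to 61945, 60012, 84576 and 71473 CPM in the control samples and to 38892, 41896 and 41740 CPM in the LPS samples.

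Differences between LPS and control were tested with edgeR (quasi-likelihood F test) on the 13683 genes that passed a filter on low counts, with Benjamini-Hochberg adjustment, and genes with an adjusted p below 0.05 are named as called. Of the 57 members 37 were tested. Among these 10 were called higher and 7 lower, where 13.3% of all tested genes were called higher and 13% lower, and 20 were not called. The number higher was 6 without control replicate 4 or without LPS replicate 1, and the genes called lower over the whole table went from 1773 to 1146 without LPS replicate 2 and to 1159 without LPS replicate 3. The median log2 fold change of the tested members was 0.27, against -0.01 over all tested genes. Both class Ia genes were called higher and 5 of 6 tested class II chain genes lower, while class Ib had 1 of 13 tested genes called higher and 2 lower.

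**Figure D1:**
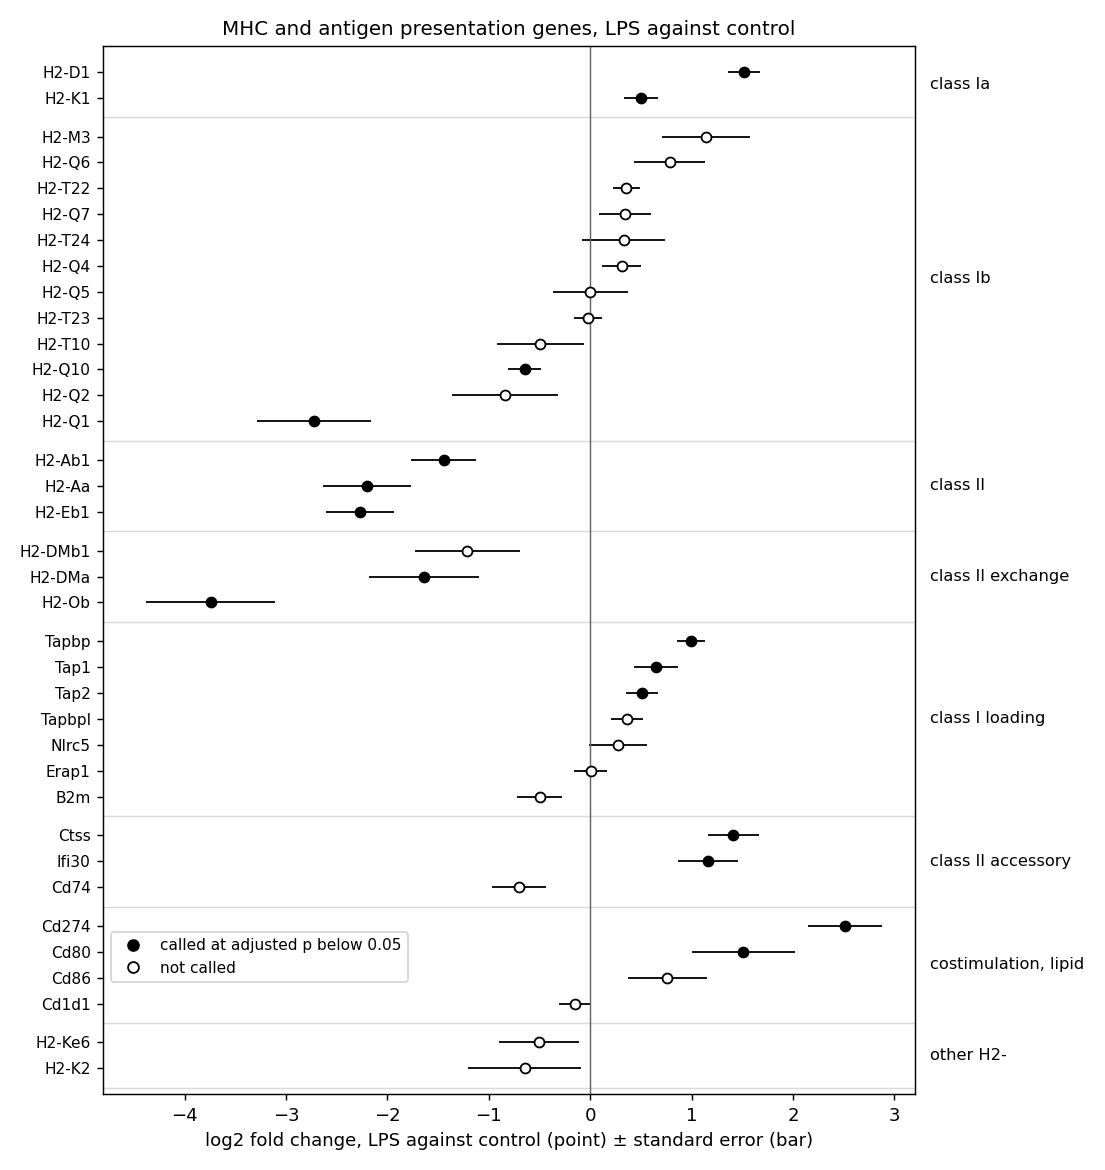
Log2 fold change of LPS against control (horizontal axis) for the tested members by group, as points with bars of 1 standard error, where filled points were called at an adjusted p below 0.05 and open points were not. H2-D1 at 1.52 and H2-K1 at 0.50 lie right of 0, and H2-Aa, H2-Ab1 and H2-Eb1 lie between -2.27 and -1.44. H2-M10.5, which had no count in the control samples, is not drawn.

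Both class Ia heavy chains were higher under LPS, H2-D1 by far more than H2-K1. H2-D1 (ENSMUSG00000073411) stood at 385, 344, 403 and 316 CPM in control replicates 1 to 4 and at 885, 1121 and 1108 CPM in LPS replicates 1 to 3. Every LPS sample was above every control sample, and the level rose 2.87-fold (log2 fold change 1.52, SE 0.16, adjusted p = 1.48e-05). H2-K1 (ENSMUSG00000061232) stood at 1019, 783, 975 and 840.2 CPM in the control samples and at 1059, 1428 and 1356 CPM in the LPS samples. Here LPS replicate 1 lay just above the highest control sample, and the rise was 1.42-fold (log2 fold change 0.50, SE 0.17, adjusted p = 0.0434). The H2-K1 call was lost without control replicate 2 (0.42, adjusted p = 0.107), control replicate 4 (0.46, adjusted p = 0.102), LPS replicate 2 (0.42, adjusted p = 0.192) or LPS replicate 3 (0.46, adjusted p = 0.159). The H2-D1 call was kept without each of the 7 samples. The median log2 fold change of class Ia was 1.01. Neutrophil and monocyte marker sums, given below, were above every control sample in every LPS sample. Their part in the class Ia rise was not tested. H2-L, a further class Ia locus, is absent from the haplotype of this strain and was not in the table.

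The make-up of the class I pool therefore differed between the groups. H2-D1 counts came to 0.378, 0.440, 0.413 and 0.377 of the H2-K1 counts in the control samples and to 0.836, 0.785 and 0.817 in the LPS samples. Of all class I heavy chain counts, H2-D1 took 11.8%, 11.1%, 13.9% and 11.2% in the control samples and 28.6%, 28.9% and 29.3% in the LPS samples. The share of H2-Q10 ran the other way, from 46.8%, 52.8%, 42.5% and 48.9% in the control samples to 26.5%, 25.3% and 25.6% in the LPS samples. Neither the ratio nor the shares overlapped between the groups, and they were not tested as such.

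Divided by exon length, the control order was H2-Q10 at 332 ± 40.6, H2-K1 at 308 ± 37.8 and H2-D1 at 140.4 ± 15.2 CPM per kilobase (SD, n = 4), of which the first was above the second in control replicates 1, 2 and 4 and below it in replicate 3. In the LPS samples the same scale gave H2-K1 at 436 ± 66.5, H2-D1 at 403 ± 51.4 and H2-Q10 at 212 ± 20.7 CPM per kilobase (SD, n = 3). On this scale H2-K1 was above H2-D1 and H2-D1 above H2-Q10 in each LPS sample. These 3 genes carry stretches in common with other class I genes: 9.63% of the 50-base windows of H2-K1 transcripts, 12.8% of those of H2-D1 and 19.0% of those of H2-Q10 occur in another gene, and the handling of reads matching more than 1 gene is not given in the sources used here. Summed over all class I heavy chains, so that reads traded between them do not matter, the level was 3023 ± 207 CPM in control and 3582 ± 428 CPM in LPS samples (SD, n = 4 and n = 3). The summed level was not called (log2 fold change 0.24, SE 0.17, adjusted p = 0.315).

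Class Ib held 26 genes, of which 13 were tested, 1 was called higher and 2 were called lower. The median log2 fold change of the tested genes was 0.31, also with H2-M10.5 set at its bound. H2-Q10 (ENSMUSG00000067235) encodes a class Ib chain that lacks a membrane anchor and is secreted by hepatocytes. It stood at 1532, 1636, 1234 and 1375 CPM in the control samples and at 819, 980.3 and 969.5 CPM in the LPS samples. The groups did not overlap, and the level fell by 0.65 on the log2 scale (SE 0.16, adjusted p = 0.0115). The hepatocyte marker sum given above, most of it Alb, was also lower, while Cps1 of the same list was higher in every LPS sample, and their part in the result was not tested. In bulk tissue, fewer cells of a type and less RNA per cell cannot be told apart.

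H2-Q1 was lower as well, at 15.8, 9.83, 3.60 and 5.99 CPM in the control samples and 2.26, 1.16 and 0.435 CPM in the LPS samples. Its control values spread widely, yet the lowest of them was above the highest LPS value (log2 fold change -2.73, SE 0.56, adjusted p = 0.00332). The value was -3.45 without LPS replicate 1 and -2.30 without control replicate 1, and the call was kept without each sample. The mitochondrial share had the same order as H2-Q1 across the control samples and was lower in every LPS sample, and its part in the result was not tested. H2-Q1 shares 14.96% of its 50-base windows with other genes, most of them with H2-Q2, which itself ran from 0.855 to 2.12 CPM in control and from 0.684 to 1.01 CPM in LPS samples (log2 fold change -0.84, adjusted p = 0.269).

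H2-M10.5 was the class Ib gene called higher. It belongs to the M10 family, known from sensory neurons of the vomeronasal organ. No read was counted on it in the 4 control samples, and LPS replicates 1 to 3 held 17, 39 and 32 reads. Set against 3 counts in each control library, the LPS mean was at least 9.66-fold higher (adjusted p = 7.98e-04). The gene passed the filter on its LPS counts alone, was called without a filter (adjusted p = 1.04e-08) and was not tested where at least 10 counts were asked of every sample. Of its 50-base windows 16.2% occur in another gene, mostly in H2-M10.3, which had no count in any sample. H2-M10.1, a relative with at most 8 counts in a sample, was not tested and also had reads in LPS samples alone, in replicates 1 and 3.

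The other tested class Ib genes were not called by edgeR. H2-T23 encodes Qa-1, the ligand of the inhibitory CD94-NKG2A receptor of natural killer cells. It lay between 152 and 182 CPM in control and between 149.9 and 174 CPM in LPS samples (log2 fold change -0.02, adjusted p = 0.935), with the opposite sign without control replicate 2 (0.01) or LPS replicate 1 (0.05). H2-T22, whose product is bound by a subset of gamma delta T cells, was at 94.4, 88.2, 79.05 and 82.3 CPM in the control samples and 103, 113 and 114 CPM in the LPS samples. These groups did not overlap, and the difference was not called by edgeR (log2 fold change 0.36, adjusted p = 0.0636), though it was by DESeq2 (0.36, adjusted p = 0.0493) and without control replicate 1 (0.40, adjusted p = 0.0441). H2-T22 shares 34.5% of its windows with other genes, most of them with H2-T10, which spanned 1.95 to 3.32 CPM in control and 1.03 to 2.74 CPM in LPS samples (log2 fold change -0.49, adjusted p = 0.442).

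H2-M3 encodes a chain that presents N-formylated peptides of bacteria. It was at 2.33, 1.20, 1.10 and 1.31 CPM in the control samples and 3.96, 4.05 and 1.74 CPM in the LPS samples. LPS replicate 3 lay below control replicate 1, and the gene was not called (log2 fold change 1.14, SE 0.44, adjusted p = 0.0727). Without control replicate 1 it was (1.43, adjusted p = 0.0351), and likewise without LPS replicate 3 (1.44, adjusted p = 0.0438). H2-Q6 (log2 fold change 0.78, adjusted p = 0.121) lay between 1.343 and 2.26 CPM in control and between 3.15 and 3.23 CPM in LPS samples, without overlap. H2-Q7, which encodes the Qa-2 antigen, H2-Q4, H2-T24 and H2-Q5 overlapped between the groups, with log2 fold changes of 0.35, 0.31, 0.33 and 0.00, the last without a stable sign.

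**Figure D2:**
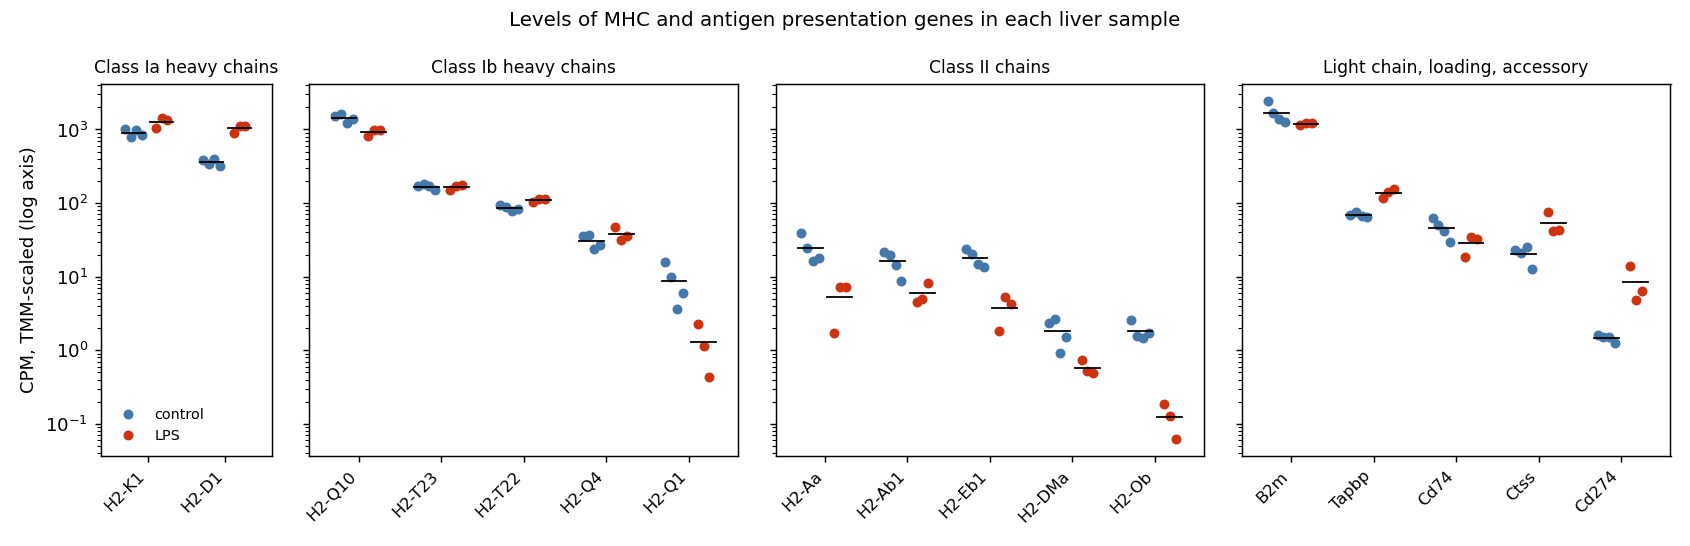
CPM of selected members in each liver sample (log axis), with control samples in blue, LPS samples in red and a line at each group mean. H2-D1 lies between 316 and 403 CPM in control and between 885 and 1121 CPM in LPS samples, while H2-Eb1 lies between 13.3 and 24.1 CPM in control and between 1.84 and 5.28 CPM in LPS samples.

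The light chain did not follow the class Ia heavy chains. B2m, which encodes beta-2-microglobulin, the partner of every class I heavy chain, stood at 2473, 1663, 1391 and 1270 CPM in the control samples and at 1137, 1233 and 1241 CPM in the LPS samples. All LPS samples were below the lowest control sample, and B2m was not called (log2 fold change -0.50, SE 0.22, adjusted p = 0.12), with a value of -0.26 (adjusted p = 0.273) without control replicate 1. Without the TMM factor it was called (-0.60, adjusted p = 0.0373), but relative to the median of all genes its value was then -0.47, against -0.48 with the factor. The widest gap among the control samples was between replicate 1 and the rest.

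Of the 7 genes for the light chain, loading and control of class I, 3 were called higher, and the median log2 fold change was 0.36. Tapbp encodes tapasin, which holds empty class I molecules at the TAP transporter. It was at 69.4, 76.0, 66.9 and 65.7 CPM in the control samples and 119, 143 and 154 CPM in the LPS samples, a rise of 1.99-fold (log2 fold change 1.00, SE 0.14, adjusted p = 1.91e-04). Tap1 and Tap2 encode the subunits of the peptide transporter of the endoplasmic reticulum. Tap1 was at 12.7, 12.5, 9.64 and 11.9 CPM in the control samples and 24.9, 12.8 and 16.9 CPM in the LPS samples (log2 fold change 0.65, SE 0.22, adjusted p = 0.0456). LPS replicate 2 was close to the control samples, and without LPS replicate 1 the Tap1 value was 0.35 (adjusted p = 0.254). Tap2 was at 12.5, 13.9, 14.5 and 11.7 CPM in the control samples and 18.2, 19.4 and 18.6 CPM in the LPS samples (log2 fold change 0.51, SE 0.15, adjusted p = 0.027). Both calls were fragile. The Tap1 call was kept only without LPS replicate 2 (0.85, adjusted p = 0.0182), with adjusted p between 0.0544 and 0.254 without each other sample. The Tap2 call was lost without control replicate 4 or any LPS replicate, with adjusted p of 0.0721, 0.0521, 0.102 and 0.0834. Without the TMM factor both were lost (Tap1 0.56, adjusted p = 0.127, and Tap2 0.39, adjusted p = 0.131). Relative to the median of all genes these values were 0.69 and 0.52. Tap1 was also lost with at least 10 counts in every sample (0.63, adjusted p = 0.0592) and Tap2 without a filter (0.52, adjusted p = 0.0556).

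The other genes of this group were not called. Tapbpl encodes the tapasin-like editor TAPBPR and lay between 12.6 and 16.2 CPM in control and between 16.8 and 20.3 CPM in LPS samples (log2 fold change 0.36, adjusted p = 0.119). Erap1, the aminopeptidase that trims peptides to the length class I holds, lay between 51.3 and 76.7 CPM in control and between 57.7 and 66.7 CPM in LPS samples, with a log2 fold change of 0.01 and no stable sign. Nlrc5, the transactivator of class I genes, lay between 7.68 and 20.85 CPM in control and between 13.5 and 20.2 CPM in LPS samples (log2 fold change 0.27, adjusted p = 0.524).

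Genes that supply or fold class I molecules were read as further lists. None of the 5 genes of the immunoproteasome and its PA28 cap (Psmb8, Psmb9, Psmb10, Psme1, Psme2) was called by edgeR, 0 had an unadjusted p below 0.05, and DESeq2 called 0 of 5. Their median log2 fold change was -0.03. Of 6 chaperones and translocation genes of the endoplasmic reticulum, 5 were called higher, with a median of 0.93. Calr encodes calreticulin, a part of the peptide-loading complex, and went from 1089 ± 206 to 2106 ± 299.8 CPM (SD, n = 4 and n = 3; log2 fold change 0.95, adjusted p = 0.00223 by edgeR). Pdia3, its partner ERp57, had a log2 fold change of 0.72, and the general chaperones Hspa5 and Pdia4 and the channel subunit Sec61a1 had values of 1.27, 1.39 and 0.91. Canx, which encodes calnexin, was not called (0.41, adjusted p = 0.138). These chaperones serve many secreted and membrane proteins, not class I alone.

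The class II chains that could be tested were lower. Of 5 class II chain genes 3 were tested and all 3 were called lower, with a median log2 fold change of -2.20. H2-Aa (ENSMUSG00000036594), the I-A alpha chain, was at 38.7, 24.5, 16.4 and 17.7 CPM in the control samples and 1.70, 7.14 and 7.21 CPM in the LPS samples (log2 fold change -2.20, SE 0.44, adjusted p = 0.00258). H2-Ab1 (ENSMUSG00000073421), the I-A beta chain, was at 21.9, 19.7, 14.2 and 8.60 CPM in the control samples and 4.56, 5.02 and 8.21 CPM in the LPS samples (log2 fold change -1.44, SE 0.32, adjusted p = 0.00524). H2-Eb1 (ENSMUSG00000060586), the I-E beta chain, was at 24.1, 20.0, 15.1 and 13.3 CPM in the control samples and 1.84, 5.28 and 4.29 CPM in the LPS samples (log2 fold change -2.27, SE 0.33, adjusted p = 2.86e-04). For each chain every LPS sample was below every control sample, with the narrowest gap for H2-Ab1, and each call was kept without each of the 7 samples. LPS replicate 1 had the lowest level of all 3. H2-Ea, the I-E alpha chain, had no count in any sample, and mice of this haplotype are known not to express it. H2-Eb2 had at most 2 counts in a sample.

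Of the 5 chains that exchange peptides on class II, 3 were tested and 2 were called lower. H2-Ob, a chain of H2-O, the modulator of peptide exchange found mostly in B cells, held 36, 25, 24 and 35 counts in the control samples and 4, 2 and 1 counts in the LPS samples (log2 fold change -3.74, SE 0.63, adjusted p = 8.32e-04). H2-Ob passed the filter on its control counts alone. H2-DMa, a chain of the exchange factor H2-DM, was at 2.33, 2.65, 0.916 and 1.498 CPM in the control samples and 0.736, 0.515 and 0.4975 CPM in the LPS samples (log2 fold change -1.64, SE 0.54, adjusted p = 0.042). That call was kept only without control replicate 3 (-1.86, adjusted p = 0.0182), with adjusted p between 0.0525 and 0.138 without each other sample. H2-DMb1 was not called (log2 fold change -1.21, adjusted p = 0.108), although its LPS values of 0.322 to 1.31 CPM were all below its control values of 1.65 to 2.77 CPM. H2-DMb2, with at most 13 counts, and H2-Oa, with at most 4, were not tested.

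Over both kinds of chain, 6 of 10 genes were tested, 5 were called lower and all 6 had LPS values below every control value, beside the 13% of all tested genes called lower. Of all 13683 tested genes 2376 were below without overlap. Of the 6 tested class II genes none was called higher by edgeR and 0 were higher at an unadjusted p below 0.05. DESeq2 called 0 higher and 5 lower of 7 class II genes. Where at least 10 counts were asked of every sample, 3 of these genes were tested and all 3 were lower, and without a filter 4 of 9 were lower. Summed into 1 value, class II chains were at 92.4, 72.2, 49.98 and 45.6 CPM in the control samples and at 10.4, 18.5 and 21.7 CPM in the LPS samples. The sum was 3.87-fold lower in LPS samples (log2 fold change -1.95, SE 0.29, adjusted p = 3.16e-04). The mitochondrial share of counts given above was also lower in every LPS sample than in every control sample, and within the control samples both were highest in replicate 1 and next in replicate 2. Its part in the result was not tested.

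Of the 4 genes that control and serve class II, 3 were tested, 2 were called higher and 0 lower. Ciita, the master transactivator of class II genes, was too low to test, with 12, 8, 9 and 9 counts in the control samples and 0, 5 and 3 in the LPS samples. Its level of 0.435 to 0.848 CPM in the control samples was above the 0 to 0.322 CPM of the LPS samples, without overlap. Cd74, the invariant chain that guards the class II groove until the endosome, was at 63.4, 49.9, 41.9 and 29.1 CPM in the control samples and 18.6, 34.5 and 32.0 CPM in the LPS samples. The groups overlapped at control replicate 4, and Cd74 was not called by edgeR (log2 fold change -0.70, SE 0.26, adjusted p = 0.0671). It was called without control replicate 4 (-0.88, adjusted p = 0.0211), by DESeq2 (-0.69, adjusted p = 0.0378), without a filter (-0.69, adjusted p = 0.00115), without the TMM factor (-0.82, adjusted p = 0.0158) and with a replicate block (-0.89, adjusted p = 0.0304). Without LPS replicate 1 the value was -0.46 (adjusted p = 0.226) and without control replicate 1 it was -0.51 (adjusted p = 0.149), the values nearest to 0 among the 17 alternatives.

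Both lysosomal enzymes of the set were higher. Ctss encodes cathepsin S, which cuts the invariant chain, and was at 22.7, 20.9, 25.6 and 12.6 CPM in the control samples and 76.6, 42.3 and 43.5 CPM in the LPS samples (log2 fold change 1.41, SE 0.25, adjusted p = 0.00126). Ifi30, the thiol reductase GILT that opens disulfide bonds of antigens, was at 14.3, 12.3, 8.42 and 7.83 CPM in the control samples and 36.8, 15.8 and 18.6 CPM in the LPS samples (log2 fold change 1.16, SE 0.29, adjusted p = 0.0114). LPS replicate 1 was the highest sample for both, and without it the Ifi30 value was 0.69 (adjusted p = 0.0714). Of 8 further endosomal proteases and turnover genes, 4 were called higher and 1 lower, with a median log2 fold change of 0.59. Ctsl rose from 655 ± 56.6 to 2653 ± 589 CPM (SD, n = 4 and n = 3), and Lgmn and Ctsz had log2 fold changes of 1.29 and 0.76. Marchf1, a ubiquitin ligase that sends surface class II to degradation, was at 0.630 to 1.77 CPM in control and 3.92 to 10.6 CPM in LPS samples (log2 fold change 2.53, adjusted p = 0.00147). Its relative Marchf8 was lower (-0.72).

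Transcription factors that bind MHC promoters were mostly not called, as were 10086 of all 13683 tested genes. For the counts that follow, the shares over all tested genes were 13% called lower and 13.3% called higher. Of 7 genes of the RFX, CREB and NF-Y complex 1 was lower, Nfyb, the B subunit of NF-Y (log2 fold change -0.65, adjusted p = 0.00447), and the median was -0.21. Interferon gamma is the best known inducer of both MHC classes. Of the 10 genes of its signalling list 8 were tested and 1 was higher, the receptor chain Ifngr2 (1.06, adjusted p = 0.00149), with a median of 0.27. Ifng itself had at most 5 counts in a sample and Socs1 at most 16, and neither was tested. Irf1 was not called (log2 fold change 0.33, adjusted p = 0.213).

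Promoters of some called members are shown beside the sequences these factors are known to bind. RefSeq windows of 300 bases, from 250 before to 50 after the start of a gene (build GRCm38.p6, while the submitters' notes name GRCm39 for the reads), were found for 39 of 57 members, and not for H2-Ab1, H2-Q1 or Tap2. They were searched on both strands for CCAAT (the core of the Y box, bound by NF-Y), TTCNNNGAA (GAS, the gamma-activated site), GAAANNGAA (the core of the ISRE, bound by IRF proteins) and GGGANTTCC (kappa B). Of all 32851 windows 37.4% held CCAAT, 8.30% GAS, 8.56% the ISRE core and 1.68% kappa B. CCAAT was found, in at least 1 window of the gene, for 2 of 2 class Ia genes, 17 of 20 class Ib genes and 8 of 8 class II chain genes with a window. GAS was found for 2 class Ib genes and 1 class II chain gene, and the ISRE core for 2 class Ib genes and none of the class II chain genes. A match is a description of letters and not a shown site.

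Class Ia and H2-Q10 are printed first, since they went in opposite directions. Capitals mark the matches to the 4 spellings searched, here all of CCAAT or its reverse complement. Sites spelled in another way would stand unmarked, so lower-case letters do not show that a site is absent. The windows are chr17:34000284-34000583 on the minus strand for H2-K1, 1 of 2 overlapping windows, chr17:35262844-35263143 on the plus strand for H2-D1 and chr17:35469839-35470138 on the plus strand for H2-Q10. The H2-Q10 window held none of the 4 motifs as spelled here.
H2-K1: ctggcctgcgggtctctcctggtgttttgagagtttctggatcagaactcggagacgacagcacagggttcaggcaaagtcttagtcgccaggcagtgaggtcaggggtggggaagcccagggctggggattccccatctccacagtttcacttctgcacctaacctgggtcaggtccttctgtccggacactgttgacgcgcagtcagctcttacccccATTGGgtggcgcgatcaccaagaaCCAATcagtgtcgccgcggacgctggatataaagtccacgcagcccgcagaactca
H2-D1: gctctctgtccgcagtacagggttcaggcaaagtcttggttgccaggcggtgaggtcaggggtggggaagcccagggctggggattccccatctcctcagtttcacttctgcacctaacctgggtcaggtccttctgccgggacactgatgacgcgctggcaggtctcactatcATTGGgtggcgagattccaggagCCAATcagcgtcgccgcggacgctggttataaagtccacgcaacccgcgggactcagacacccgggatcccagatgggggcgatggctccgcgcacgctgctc
H2-Q10: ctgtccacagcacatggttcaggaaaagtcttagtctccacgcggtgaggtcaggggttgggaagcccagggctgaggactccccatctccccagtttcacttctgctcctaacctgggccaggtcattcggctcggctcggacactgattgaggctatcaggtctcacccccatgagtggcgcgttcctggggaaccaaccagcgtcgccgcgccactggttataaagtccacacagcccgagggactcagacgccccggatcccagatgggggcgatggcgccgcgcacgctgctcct

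Class II chains that fell together are printed next: H2-Aa at chr17:34287774-34288073 on the minus strand, H2-Eb1 at chr17:34305617-34305916 on the plus strand and H2-Ob at chr17:34238655-34238954 on the plus strand. Each held the reverse complement of CCAAT, ending 44, 55 and 53 bases before the start of the gene. The capitals further upstream in H2-Aa are a kappa B match, and those nearer the start in H2-Eb1 a second CCAAT.
H2-Aa: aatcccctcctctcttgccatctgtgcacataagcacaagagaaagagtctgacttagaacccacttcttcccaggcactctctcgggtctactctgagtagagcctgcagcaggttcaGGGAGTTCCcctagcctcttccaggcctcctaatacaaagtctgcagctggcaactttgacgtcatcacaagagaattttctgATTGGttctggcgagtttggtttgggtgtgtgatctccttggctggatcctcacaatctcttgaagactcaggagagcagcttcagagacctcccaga
H2-Eb1: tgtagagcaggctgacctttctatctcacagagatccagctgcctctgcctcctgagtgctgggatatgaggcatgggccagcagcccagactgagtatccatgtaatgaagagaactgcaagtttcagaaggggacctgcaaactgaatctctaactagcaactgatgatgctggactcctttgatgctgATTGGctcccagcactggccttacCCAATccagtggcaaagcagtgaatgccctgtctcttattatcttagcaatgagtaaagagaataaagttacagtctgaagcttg
H2-Ob: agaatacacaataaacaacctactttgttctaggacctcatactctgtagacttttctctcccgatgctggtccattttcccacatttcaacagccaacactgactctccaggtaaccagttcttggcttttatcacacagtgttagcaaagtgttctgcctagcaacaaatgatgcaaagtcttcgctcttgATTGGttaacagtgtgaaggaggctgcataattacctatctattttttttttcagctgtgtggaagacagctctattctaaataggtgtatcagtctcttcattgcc

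Markers of cells that carry class II were read beside the class II values. B cell markers summed to 12.2, 15.2, 5.80 and 9.91 CPM in the control samples and to 4.60, 1.87 and 2.74 CPM in the LPS samples. Of 8 B cell genes 5 were tested and 2 were lower, Cd79b among them (log2 fold change -3.60). Ighm, the most abundant, averaged 5.17 and 1.86 CPM in control and LPS samples and was not called (-1.45, adjusted p = 0.0549). Dendritic cell markers summed to 13.6, 9.46, 8.18 and 8.02 CPM in the control samples and to 9.07, 10.6 and 6.78 CPM in the LPS samples. Of 10 genes 4 were tested and 0 were called by edgeR, 0 had an unadjusted p below 0.05, and DESeq2 called 0 of 8. Zbtb46 was the most abundant, at 4.75 and 5.30 CPM, and it made up a large part of the sum. The tested genes had log2 fold changes of 0.88 for Itgax, 0.59 for Batf3, 0.16 for Zbtb46 and -0.49 for Clec9a. Each overlapped between the groups, and their median was 0.37. The 6 untested genes averaged less in LPS than in control samples: Siglech 0.273 against 0.705 CPM, without overlap, Flt3 0.107 against 0.43, Ccr7 0.0614 against 0.295, Clec10a 0.104 against 0.254, Xcr1 0.0153 against 0.179 and Cd209a 0.0207 against 0.168 CPM, the last 5 with overlap. The part of these cells in the lower class II levels was not tested.

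Macrophage lists went up or were mixed while class II went down. Kupffer cell markers summed to 134, 188, 172 and 118 CPM in the control samples and to 682, 138 and 144 CPM in the LPS samples, and 4 of 10 were called higher and 1 lower. Clec4f, the most abundant in control samples, fell by 2.13 on the log2 scale, while the scavenger receptor Marco, the most abundant in LPS samples, went from between 2.37 and 5.55 CPM to 409, 66.4 and 65.5 CPM. Adgre1, C1qa and C1qb were the other genes called higher (1.62, 0.87 and 1.21). LPS replicate 2 of C1qa lay within the range of the control samples. The other 5 markers were not called, and 3 of them lay below every control sample in LPS replicates 2 and 3: Cd5l at 4.89 and 3.30 CPM against 24.1 to 44.9 CPM in the control samples, Timd4 at 0.0643 and 0.622 against 1.98 to 5.25 CPM and Vsig4 at 3.60 and 1.93 against 8.62 to 12.1 CPM. In LPS replicate 1 they were at 75.7, 12.8 and 10.9 CPM. C1qc and Folr2 lay within the control range in LPS replicates 2 and 3. LPS replicate 1 stood apart here, and it was also the sample with the lowest summed class II chains. Monocyte and recruited macrophage markers summed to 49.9, 60.9, 62.6 and 33.8 CPM in the control samples and to 216, 159.7 and 165 CPM in the LPS samples, with 5 of 7 called higher, Lyz2 the most abundant at 31.5 and 75.9 CPM, and Itgam, Ly6c2, Lyz2 and Fcgr1 at log2 fold changes of 6.39, 3.28, 1.27 and 2.12. Chil3, the remaining one, had 0, 5, 0 and 0 counts in the control samples and 23.5, 25.9 and 29.5 CPM in the LPS samples. Neutrophil markers summed to 5.16, 4.03, 1.53 and 2.85 CPM in the control samples and to 199, 141 and 139.8 CPM in the LPS samples, and 6 of 6 tested were higher. Retnlg and Mmp8, with at most 1 count in a control sample, passed the filter on their LPS counts alone. Cxcr2 and S100a8 had at most 11 and 14 counts in a control sample. S100a9 was the most abundant in LPS samples at 82.8 CPM, and Ly6g, with no count in the control samples and at most 7 in an LPS sample, was not tested. H2-D1, H2-K1, Tapbp, Tap1, Tap2, Ctss, Ifi30, Cd80 and Cd274 were higher in the same samples, and the part of these cells in those rises was not tested.

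Among the other cell lists, sinusoidal endothelium summed to between 94.1 and 143.9 CPM in control and between 76.5 and 134 CPM in LPS samples, with Lyve1 and Pecam1 higher (log2 fold changes 1.76 and 1.28), Clec4g and Kdr lower (-4.43 and -0.97) and Fcgr2b the most abundant in control samples. T cell markers summed to between 3.05 and 5.13 CPM in control and between 1.18 and 2.07 CPM in LPS samples, and 1 of 2 tested was lower, Cd4 (8.01-fold), which was also the most abundant in control samples. Of 4 natural killer cell markers 1 was tested, Klrk1, and 0 were called by edgeR, 0 had an unadjusted p below 0.05, and DESeq2 called 0 of 2, while Eomes had no count in the control samples. Klrk1 had a log2 fold change of -0.40. Klrb1c, not tested, lay between 0 and 0.435 CPM in control and between 0.515 and 1.29 CPM in LPS samples, without overlap. Stellate cell markers had 2 of 5 called lower, Reln and Lrat (-2.32 and -1.33), with Dcn the most abundant. Cholangiocyte markers had 1 of 4 called higher, Sox9, the most abundant (1.49). Krt19, Krt7 and Epcam were not called, with log2 fold changes of -1.14, -0.64 and -0.34, and the list median was -0.49.

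Of the 4 genes for costimulation and lipid presentation, 2 were called higher, with a median log2 fold change of 1.14. Cd274 encodes PD-L1, the inhibitory ligand of PD-1 on T cells, and was at 1.63, 1.51, 1.53 and 1.26 CPM in the control samples and 13.9, 4.89 and 6.47 CPM in the LPS samples. The groups lay far apart, LPS replicate 1 was the highest, and the level rose 5.71-fold (log2 fold change 2.51, SE 0.37, adjusted p = 2.73e-04). Cd80 and Cd86 encode B7 ligands of CD28 on T cells. Cd80 was at 0.778, 1.13, 0.427 and 0.483 CPM in the control samples and 2.39, 2.12 and 1.49 CPM in the LPS samples (log2 fold change 1.51, SE 0.51, adjusted p = 0.0437). Its call was kept only without control replicate 2 (1.82, adjusted p = 0.032), with adjusted p between 0.0584 and 0.137 without each other sample. The Cd80 call was also lost without a filter (1.52, adjusted p = 0.0634) and without the TMM factor (1.41, adjusted p = 0.0652). Cd86 was at 1.13, 2.33, 2.197 and 2.27 CPM in the control samples and 4.83, 2.90 and 2.36 CPM in the LPS samples, without overlap and without a call (log2 fold change 0.76, adjusted p = 0.18).

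Cd1d1, which presents lipids to natural killer T cells, lay between 162 and 227 CPM in control and between 154.9 and 191 CPM in LPS samples and was not called (log2 fold change -0.15, adjusted p = 0.515). Of 8 other costimulatory ligands 4 were tested. Vsir, the inhibitory ligand VISTA, was higher (log2 fold change 1.30, adjusted p = 0.00659) and Cd276, which encodes B7-H3, was lower (-2.47, adjusted p = 2.92e-04), while Cd83 and Icosl were not called. Cd40, Pdcd1lg2 and Tnfsf9, with at most 27, 8 and 16 counts, were not tested, and Tnfsf4 had no count.

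Of the 4 other genes with the H2- prefix 2 were tested, and edgeR called 0, 0 had an unadjusted p below 0.05, and DESeq2 called 0 of 2. H2-K2 was at 8.34, 3.72, 0.977 and 6.62 CPM in the control samples and 4.88, 2.38 and 2.05 CPM in the LPS samples (log2 fold change -0.65, adjusted p = 0.437). H2-Ke6, which lies in the MHC and encodes a dehydrogenase also called Hsd17b8, had a log2 fold change of -0.51 (adjusted p = 0.384), and 70.5% of its 50-base windows are shared with the overlapping gene Gm20427.

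The 20 members that were not tested comprised Ciita, H2-DMb2, H2-Oa, H2-Eb2 and H2-M10.1, given above, together with H2-Bl, H2-M2 and H2-M10.6, with at most 14, 5 and 2 counts in a sample, and 12 genes without a count in any sample. The latter were H2-Ea, the class Ib genes H2-M1, H2-M5, H2-M9, H2-M10.2, H2-M10.3, H2-M10.4, H2-M11, H2-Q3 and H2-T3, and H2-Pa and H2-Pb. At these depths a gene without a count could still hold up to the equivalent of 3 counts in a library, and this floor covers counting error only. Some members overlap a gene on the other strand in the GENCODE M21 annotation, among them Tap1 with Psmb9, Erap1 with Cast, Tapbpl with Vamp1 and Ciita with Dexi. The libraries kept the strand, and whether the counting used it is not given in the sources used here.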

How the data were processed

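Liver RNA of 4 control and 3 LPS samples was analysed. The authors deposited raw counts per gene, made per the submitters' processing notes with cutadapt 1.9.1, HISAT2 2.2.1 and HTSeq 0.6.1 on GRCm39. The annotation, the handling of reads matching several genes and the strand setting of the counting are not given in the sources used here. Counts were filtered with filterByExpr, scaled by TMM and tested with the quasi-likelihood test of edgeR 4.0.16 in R 4.3.3, with Benjamini-Hochberg adjustment over all tested genes. As a rule, every member is named, with up to 5 called genes per direction of each pathway list and, of each marker list, the most abundant gene and defining genes at 0. Other genes of these lists were named after their values were seen. Some genes of these lists are not reported here. Members and lists were chosen with earlier results of these data known. Lengths are the merged exons of GENCODE M21. The alternatives were DESeq2 1.42.0, other scalings and filters, stricter thresholds, a replicate block, LPS replicates 2 and 3 summed and leaving out each sample. The test was run on simulated data as a check.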

Additional observations from a re-analysis of the deposited data

Results flagged for a closer look

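Among 37 tested members, control replicate 1 stood far from the other control samples for 2 genes, by a gap to the nearest sample that took up most of the range of the group and passed the 95% critical value of Dixon's test. H2-M3 was highest there, at 2.33 CPM against 1.10 to 1.31 CPM in the other control samples, a gap of 0.833 of the range. Cd86 was lowest there, at 1.13 CPM against 2.197 to 2.33 CPM, a gap of 0.888 of the range. Chance alone sets apart a sample in about 1 in 20 groups of this size.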

How the results depend on the processing

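The calls of Cd274, Ctss, H2-Aa, H2-Ab1, H2-D1, H2-Eb1 and the summed class II chains were kept in all 17 alternatives. Those of H2-M10.5, H2-Ob and H2-Q1 were kept in the 16 in which these genes were tested, among them the 1 without a filter, and these genes were not tested with at least 10 counts in every sample. In the main test H2-M10.5 passed the filter on its LPS counts alone and H2-Ob on its control counts alone.

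Members called higher numbered 10, against 6 without a scaling factor, 5 at an adjusted p below 0.01, 6 with an absolute log2 fold change above 1 as well, 6 with a replicate block and 6 to 10 without each sample in turn, of which 6 to 8 were among the first 10. They numbered 8 without a filter and 7 with at least 10 counts in every sample. Without a scaling factor the median of all genes was -0.13, and H2-K1 stood at 0.38 (adjusted p = 0.0953), or 0.51 relative to that median. The replicate block treats equal replicate numbers as pairs, whose correlations were 0.18, -0.06 and 0.07. It ended the calls of H2-K1, Tap1, Tap2, Cd80 and H2-DMa, with adjusted p of 0.113, 0.0747, 0.0851, 0.112 and 0.0812. With LPS replicates 2 and 3 counted as 1 sample, 7 members were higher, and the calls of H2-K1, Tap2, Cd80 and H2-DMa ended, with adjusted p of 0.168, 0.0814, 0.0868 and 0.118. If these replicates were not independent, the p-values from 3 LPS samples could be too small. Class Ia genes called higher numbered 1 instead of 2 without a scaling factor, at an adjusted p below 0.01 and with an absolute log2 fold change above 1. The same held with a replicate block and with LPS replicates 2 and 3 summed, and the number was 1 to 2 without each sample in turn. Class Ib genes called higher numbered 2 by DESeq2, 0 with at least 10 counts in every sample and 1 to 3 without each sample in turn. Class Ib genes called lower numbered 1 with at least 10 counts in every sample, 1 at an adjusted p below 0.01 and 1 with an absolute log2 fold change above 1.

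With at least 10 counts in every sample, members called lower numbered 4 instead of 7 and class II genes 3 instead of 5, since low genes such as H2-Ob were then not tested. Over all tested genes, 1091 were higher and 993 lower at an adjusted p below 0.01, and 1068 and 1000 with an absolute log2 fold change above 1. Stricter thresholds lower these counts by construction. All tested genes called lower numbered 1146 to 1868 without each sample in turn, the lowest without LPS replicate 2. For the other changes the cause was not tested.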
